A study of Homo sapiens with 8 samples.

Results

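The genes described here encode the main heat shock proteins of the cytosol and of the mitochondrial matrix: HSPA1A, HSPA1B, HSPA8, HSPH1, DNAJB1, HSPB1, HSP90AA1, HSP90AB1, HSPD1 and HSPE1. They were taken by gene symbol, and all 10 were found among the 23228 genes counted in every library. All 10 also passed the filter on low counts, which left 13915 genes for testing.

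RNA-seq was run on 8 libraries labelled as U87 MG, a human glioblastoma cell line. The ERβ5 group was labelled as U87 cells in which ERβ, the estrogen receptor encoded by ESR2, had been knocked out with CRISPR/Cas9 and the ERβ5 isoform then put back. The ERβ1 group was the same ERβ-KO line with the ERβ1 isoform put back. The ERβ-KO group carried the knockout alone, and the control group was labelled only as U87 control cells. Each group had 2 libraries, and all cells were grown in DMEM with fetal bovine serum. No heat, drug or hormone treatment was named. The labels do not say whether a line was a clone or whether the libraries of a group had cultures of their own, so the tests weigh differences only against the spread of these libraries, and that spread may be technical. Group names below stand for the libraries labelled so.

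Reads assigned to genes numbered 26760897 to 48076414 per library. ESR2, the targeted gene, had 7 and 10 reads in the libraries labelled ERβ5, 6 and 18 in those labelled ERβ1, 23 and 21 in those labelled ERβ-KO, and 25 and 20 in those labelled control. ERβ-KO did not differ from control by the test (edgeR adjusted p = 0.932), and the libraries labelled as having an isoform put back had fewer reads, not more, than those of ERβ-KO. The position of the edit is not given, so these few reads do not check the knockout label. They show no gain of ESR2 where an isoform was labelled as put back, so they do not bear out those labels either. Markers of the labelled cell type were mostly low or absent. Of 8 glioma and mesenchymal markers, OLIG2 and POSTN were at 0 in all 8 libraries. CHI3L1 was at 0 to 0.122 CPM (read counts scaled to library size), GFAP at 0.0459 to 0.136 CPM and VIM at 1.82 to 12.4 CPM. SOX2 was at 11.4 to 30.2 CPM, CD44 at 47.3 to 61.9 CPM and LGALS1 at 57 to 104 CPM in every library. All 8 luminal epithelial markers were present in every library, with KRT8 at 2060 to 4450 CPM, CDH1 at 1730 to 2640 CPM and GATA3 at 1120 to 1840 CPM. EPCAM was at 516 to 632 CPM, TFF1 at 254 to 471 CPM and ESR1 at 106 to 141 CPM. The summed level of the luminal list was 14800 and 15800 CPM in ERβ5, 16500 and 15700 CPM in ERβ1, 11500 and 11800 CPM in ERβ-KO, and 13000 and 13700 CPM in control. That of the glioma and mesenchymal list was 144 to 187 CPM over the 8 libraries. The cell type of the libraries can thus not be taken from the label alone. Libraries also differed in how levels followed GC content. Across 13244 genes, the correlation of a gene's GC content with its log2 level relative to the mean of the 8 libraries was 0.113 and 0.33 in ERβ5, 0.34 and -0.132 in ERβ1, -0.551 and -0.45 in ERβ-KO, and 0.123 and 0.188 in control. Each result below was therefore also computed with this trend and that with transcript length removed. Results were also computed with each library left out in turn. Such a fit leaves 1 library in a group. A call lost there can thus reflect the smaller number of libraries as well as the library left out.

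Heat shock proteins are chaperones: they hold unfolded proteins, help them fold and pull apart aggregates. HSP70 proteins bind and release short stretches of unfolded protein, driven by J-proteins and reset by nucleotide exchange factors such as HSP110, and HSP90 finishes the folding of many kinases and steroid receptors, the unliganded estrogen receptors among them. Under stress the transcription factor HSF1 binds heat shock elements, which are repeats of the unit nGAAn in alternating orientation, and raises the transcription of many of these genes, while HSPA8 and HSP90AB1 are made at high level without stress.

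The letters before the transcription starts were examined because the heat shock element is the feature by which most of these genes are known to respond together. RefSeq windows of 250 bases before each start (from a GRCh38.p14 table, each placed at 1 exact match in GRCh37) were searched on both strands for elements of 2 units, written GAANNTTC or TTCNNGAA, and of 3 units, which are GAANNTTC followed after 2 bases by GAA, or its reverse complement. A 3-unit element also contains elements of 2 units. The 10 genes had 16 windows. HSPA8, HSP90AA1, HSP90AB1 and HSPD1 held a 3-unit match, which 4 of the 16 windows and 0.441% of all 35116 RefSeq windows contained. HSPA1A, HSPA1B, DNAJB1 and HSPB1 held a match of 2 units only, and HSPH1 and HSPE1 held none in these windows. A match of any kind stood in 11.6% of all windows. The estrogen response element, GGTCA and TGACC with 3 bases between, was in none of the 10 genes' windows and in 0.0399% of all windows. A match is a description of these letters and no match says nothing on whether a factor binds.

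The windows of the stress-inducible HSP70 pair and of HSPB1, and the one of the 2 HSP90AA1 windows with a match, hold no annotated exon and are shown whole, 5′ to 3′ on the gene's strand, with heat shock element matches in capitals. HSPA1A and HSPA1B carry the same 8-base match at nearly the same distance, 106 and 105 bases before the start, and HSPB1, which has the largest log2 fold changes of the 10 genes below, has its match 182 bases before the start.
HSPA1A, chr6:31783070-31783319 (plus strand, GRCh37): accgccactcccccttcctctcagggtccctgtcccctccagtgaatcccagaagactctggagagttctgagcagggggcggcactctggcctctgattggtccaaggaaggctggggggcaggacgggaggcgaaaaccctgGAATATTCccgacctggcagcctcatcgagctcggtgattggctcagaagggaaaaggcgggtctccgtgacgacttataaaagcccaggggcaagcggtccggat
HSPA1B, chr6:31795265-31795514 (plus strand): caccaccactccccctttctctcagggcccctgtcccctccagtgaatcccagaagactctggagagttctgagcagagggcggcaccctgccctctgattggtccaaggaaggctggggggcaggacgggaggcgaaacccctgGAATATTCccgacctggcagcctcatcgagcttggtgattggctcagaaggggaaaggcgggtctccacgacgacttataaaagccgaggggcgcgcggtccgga
HSPB1, chr7:75931740-75931989 (plus strand): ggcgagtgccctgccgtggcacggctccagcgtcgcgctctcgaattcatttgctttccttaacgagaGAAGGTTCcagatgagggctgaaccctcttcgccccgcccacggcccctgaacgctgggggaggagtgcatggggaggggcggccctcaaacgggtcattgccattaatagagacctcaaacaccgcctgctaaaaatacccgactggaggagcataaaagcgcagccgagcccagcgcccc
HSP90AA1, chr14:102553382-102553631 (minus strand): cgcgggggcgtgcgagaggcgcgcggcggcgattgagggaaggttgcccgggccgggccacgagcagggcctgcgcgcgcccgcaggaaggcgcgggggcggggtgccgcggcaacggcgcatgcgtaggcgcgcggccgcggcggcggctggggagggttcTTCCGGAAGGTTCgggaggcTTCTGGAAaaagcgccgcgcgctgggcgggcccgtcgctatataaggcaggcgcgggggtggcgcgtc

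For the other genes with a match, only the match with its flanks is shown, and the coordinates are those of the capitals.
HSPA8, chr11:122933062-122933074 (minus strand, GRCh37): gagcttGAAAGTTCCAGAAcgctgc
HSPA8, chr11:122932887-122932899 (minus strand): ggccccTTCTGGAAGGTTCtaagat
DNAJB1, chr19:14629279-14629286 (minus strand): ggggcgGAAGGTTCtggagg
DNAJB1, chr19:14629249-14629256 (minus strand): gctctgGAAGCTTCcgccgg
HSP90AB1, chr6:44215515-44215527 (plus strand): agcaggTTCTGGAAGATTCatgggc
HSP90AB1, chr6:44215568-44215580 (plus strand): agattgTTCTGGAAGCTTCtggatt
HSPD1, chr2:198364797-198364809 (minus strand): gcattTTCTGGAAAGTTCtggaac
HSPD1, chr2:198364792-198364804 (minus strand): tttctgGAAAGTTCTGGAAccgagc
The HSPD1 matches overlap each other and form a stretch of 18 bases. HSPD1 and HSPE1 lie head to head on chromosome 2. That stretch stands 294 to 311 bases before the RefSeq start of HSPE1, outside the window searched for HSPE1. All 250 bases of the HSPE1 window lie in annotated exons. The GENCODE annotation starts the HSPE1 gene earlier, at 198364864, and the 250 bases before that start hold the stretch. Whether HSPE1 has a match therefore depends on the start used.

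Counts of several of these genes rest on part of their transcript, because the reads were 50 bases long and reads that aligned at more than 1 place were not assigned to genes. Of the 2351 windows of 50 bases in the HSPA1A transcript, 1766 occur exactly in HSPA1B as well, which is 75.1% of HSPA1A and 71.6% of HSPA1B. The share with an exact copy elsewhere in GRCh37 was 41.3% for HSPD1, 37.2% for HSPE1, 24.6% for HSP90AA1, 23.2% for HSPA8, 22.5% for HSP90AB1, 16.6% for HSPB1, 4.29% for DNAJB1 and 0.212% for HSPH1. The windows of HSPD1 had copies at 11 other places, those of HSPA8 at 12 and those of HSPE1 at 9. The row for reads set aside in this way held 34.72% to 39.87% of all counts of a library, and their share of the reads may differ. Copies with a mismatch were not searched for, so HSPA1A and HSPA1B values in particular are uncertain. Reads ambiguous between genes were also not assigned, at 0.5399% to 0.5606% of all counts of a library. Their share per gene is not known, so levels set beside each other between genes, those of HSPE1 included, are uncertain.

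**Figure D1:**
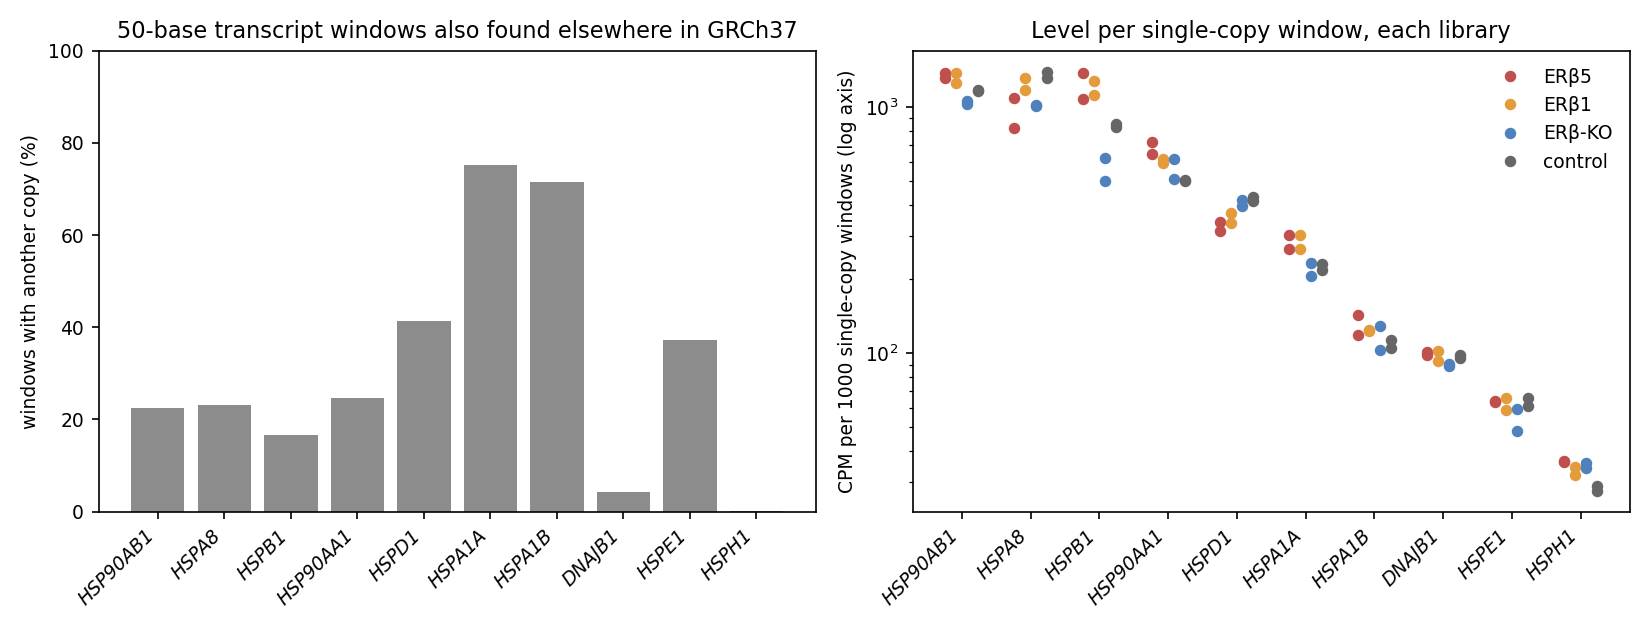
Left, the share of each gene's 50-base transcript windows that have another exact copy in GRCh37 (percent). Right, the level of each gene per 1000 single-copy windows in each of the 8 libraries (CPM, log axis): HSP90AB1, HSPA8 and HSPB1 lie highest with overlapping ranges, and HSPH1 lies lowest at 27.68 to 36.52.

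Together the 10 genes made up 0.797% and 0.747% of the gene reads in ERβ5, 0.82% and 0.771% in ERβ1, 0.675% and 0.653% in ERβ-KO, and 0.738% and 0.728% in control. The ERβ-KO libraries were the lowest of the 8 in this sum, as they were in the summed luminal epithelial markers, whose part in these differences was not tested. Per 1000 single-copy windows, the median level over the 8 libraries was 1215 CPM for HSP90AB1, 1133 for HSPA8, 967.8 for HSPB1 and 605.6 for HSP90AA1, and each of these overlapped its neighbour in that order. Below them HSPD1 (384.4 CPM per 1000 windows), HSPA1A (248.5), HSPA1B (121.2), DNAJB1 (96.86), HSPE1 (62.43) and HSPH1 (34.44) followed without overlap between neighbours, and HSPD1 lay below HSP90AA1 in all 8 libraries. The constitutive HSPA8 thus exceeded the inducible HSPA1A per single-copy window in every library, by 2.73 to 6.4 times. That ratio was 4.1 and 2.73 in ERβ5, 4.33 and 4.46 in ERβ1, 4.92 and 4.37 in ERβ-KO, and 6.4 and 5.65 in control. In bulk RNA, fewer cells of a kind and less RNA per cell cannot be told apart, which holds for all levels given.

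**Figure D2:**
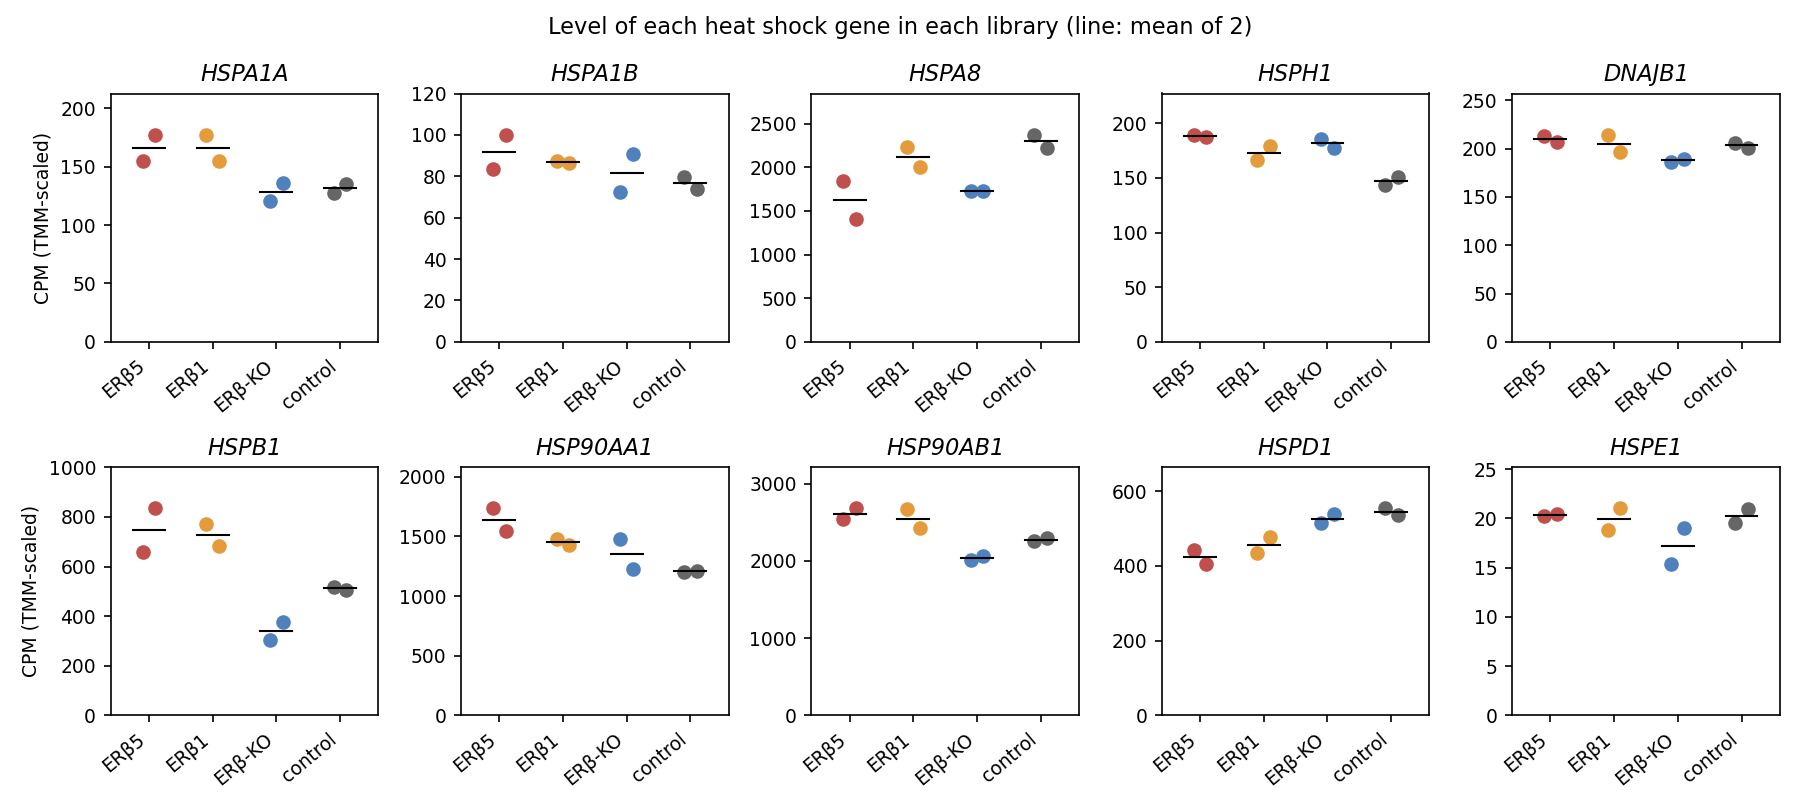
Level of each of the 10 genes in each library (CPM after TMM scaling, axis from 0), by group; each point is 1 library and the line is the mean of 2. HSPB1 is lowest in the 2 ERβ-KO libraries, at 303 and 377.4 CPM, and highest in ERβ5 and ERβ1, at 656.9 to 834.3 CPM.

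HSPB1, the small heat shock protein HSP27 that holds unfolded proteins and binds actin, differed most among the groups. Its level was 656.9 and 834.3 CPM in ERβ5, 773.2 and 681.9 CPM in ERβ1, 303 and 377.4 CPM in ERβ-KO, and 518 and 506.1 CPM in control. The groups formed 3 steps that did not overlap, with ERβ-KO lowest, control between, and ERβ5 and ERβ1 highest and overlapping each other. HSPB1 rose by a log2 fold change of 1.10 ± 0.14 in ERβ1 over ERβ-KO (SE, edgeR adjusted p = 0.000309), which is 2.14-fold, and by 1.13 ± 0.14 in ERβ5 over ERβ-KO (edgeR adjusted p = 0.000512), or 2.19-fold. It fell by 0.59 ± 0.14 on the log2 scale in ERβ-KO against control (edgeR adjusted p = 0.0163). It rose by 0.54 ± 0.14 in ERβ5 over control (edgeR adjusted p = 0.0236), and the value for ERβ1 over control was 0.51 ± 0.14 (edgeR adjusted p = 0.0623). ERβ5 and ERβ1 did not differ by the test, with a log2 difference of 0.04 and a 95% interval of -0.264 to 0.335 (edgeR adjusted p = 0.925).

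The HSPB1 transcript has 65.3% GC, the highest of the 10. With the GC and length trend removed, the ERβ-KO against control value was -0.10 and was no longer called (edgeR adjusted p = 0.359). ERβ1 over ERβ-KO was then 0.69 (edgeR adjusted p = 7.99e-05) and ERβ5 over ERβ-KO was 0.61 (edgeR adjusted p = 0.000479), while ERβ1 over control was 0.59 and was called (edgeR adjusted p = 0.00073). Both differences from ERβ-KO were called in all 8 fits that left out a library, at 0.945 to 1.26 for ERβ1 and 0.941 to 1.30 for ERβ5. The ERβ-KO against control call was lost without control library 1 (edgeR adjusted p = 0.096), control library 2 (0.101) or ERβ-KO library 1 (0.129). The ERβ5 over control call was lost without control library 1 (edgeR adjusted p = 0.135), control library 2 (0.141) or ERβ5 library 2 (0.142).

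HSPA8, the constitutive HSP70 that also uncoats clathrin vesicles, was at 1847 and 1402 CPM in ERβ5, 2230 and 2007 CPM in ERβ1, 1723 and 1730 CPM in ERβ-KO, and 2371 and 2226 CPM in control. The ERβ5 libraries lay far apart, ERβ5 library 2 being the lowest of the 8, and ERβ5 and ERβ-KO were both below ERβ1 and control in every library. HSPA8 fell by 0.41 ± 0.13 on the log2 scale in ERβ-KO against control (edgeR adjusted p = 0.0469) and by 0.50 ± 0.13 in ERβ5 against control (edgeR adjusted p = 0.0256). ERβ1 over ERβ-KO was 0.30 ± 0.13 (edgeR adjusted p = 0.113). ERβ5 against ERβ1 was -0.38 with a 95% interval of -0.665 to -0.101 (edgeR adjusted p = 0.132). Without ERβ5 library 1 that last value was -0.60 and was called (edgeR adjusted p = 0.00611).

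Unlike HSPB1, HSPA8 has 45.3% GC, and with the trend removed the ERβ-KO against control value was -0.47 (edgeR adjusted p = 0.0282) and ERβ1 over ERβ-KO was 0.36 and was called (edgeR adjusted p = 0.0458). The call in ERβ-KO against control was lost without either ERβ-KO library, either control library or either ERβ1 library. Its value stayed between -0.457 and -0.365 in the 8 fits that left out a library. The call in ERβ5 against control was lost without control library 1 (edgeR adjusted p = 0.195), control library 2 (0.0932) or ERβ5 library 2 (0.13). ERβ1 over ERβ-KO was called without ERβ5 library 1 (edgeR adjusted p = 0.0347) or ERβ5 library 2 (0.0381).

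HSPA1A and HSPA1B encode the same stress-inducible HSP70 protein. HSPA1A was at 155 and 176.7 CPM in ERβ5, 177.2 and 154.7 CPM in ERβ1, 120.5 and 136 CPM in ERβ-KO, and 127.4 and 135.5 CPM in control. Every ERβ5 and ERβ1 library was above every ERβ-KO and control library, and those last groups overlapped. HSPA1A rose by 0.37 ± 0.11 on the log2 scale in ERβ1 over ERβ-KO (edgeR adjusted p = 0.0322) and by 0.37 ± 0.11 in ERβ5 over ERβ-KO (edgeR adjusted p = 0.0302). HSPA1B was at 83.6 and 100 CPM in ERβ5, 87.53 and 86.53 CPM in ERβ1, 72.29 and 90.73 CPM in ERβ-KO, and 79.46 and 73.98 CPM in control. Its ERβ-KO libraries spanned most of the range of the other groups, and it was called in no comparison (edgeR adjusted p = 0.212 to 0.803). The ratio of HSPA1A to HSPA1B per single-copy window was 1.8 to 2.43 over the 8 libraries.

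HSPA1A has 59.8% GC, and with the trend removed its value was 0.12 in ERβ1 over ERβ-KO (edgeR adjusted p = 0.222) and 0.07 in ERβ5 over ERβ-KO (edgeR adjusted p = 0.459), neither of them called. With the trend removed it was called in ERβ1 over control at 0.33 (edgeR adjusted p = 0.0132) and in ERβ5 over control at 0.28 (edgeR adjusted p = 0.0123). As counted, the ERβ1 over ERβ-KO call was lost without ERβ1 library 1 (edgeR adjusted p = 0.212), either ERβ-KO library (0.193 and 0.0505) or either control library (0.0614 and 0.0611). The ERβ5 over ERβ-KO call was lost without ERβ5 library 2 (edgeR adjusted p = 0.178), either ERβ-KO library (0.178 and 0.055) or either control library (0.0574 and 0.0573). ERβ5 over control was called only without ERβ5 library 1 among the fits that left out a library (0.43, edgeR adjusted p = 0.0341).

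DNAJB1, the HSP40 J-protein that brings unfolded proteins to HSP70, varied least of the 10. Its level was 213.1 and 206.6 CPM in ERβ5, 214.1 and 195.9 CPM in ERβ1, 186.3 and 189.4 CPM in ERβ-KO, and 205.8 and 200.8 CPM in control. The ERβ-KO libraries were below all others. No comparison was called for DNAJB1, with log2 fold changes of -0.11 to 0.16 (edgeR adjusted p = 0.208 to 0.959).

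HSPH1, the HSP110 protein that exchanges the nucleotide of HSP70, was at 189.3 and 187.4 CPM in ERβ5, 166.4 and 179.4 CPM in ERβ1, 185.7 and 177.6 CPM in ERβ-KO, and 143.5 and 150.5 CPM in control. The control libraries were below all 6 others, and ERβ1 and ERβ-KO overlapped. HSPH1 rose by 0.31 ± 0.09 on the log2 scale in ERβ-KO over control (edgeR adjusted p = 0.0416) and by 0.36 ± 0.09 in ERβ5 over control (edgeR adjusted p = 0.0256). ERβ1 over control was 0.24 ± 0.09 (edgeR adjusted p = 0.191). HSPH1 has 39.6% GC, and with the trend removed ERβ-KO over control was 0.04 (edgeR adjusted p = 0.794), while ERβ5 over control was 0.41 (edgeR adjusted p = 0.00565) and ERβ5 over ERβ-KO was 0.38 and was called (edgeR adjusted p = 0.012). The ERβ-KO over control call was lost without ERβ-KO library 1 (edgeR adjusted p = 0.189), ERβ-KO library 2 (0.0853), control library 1 (0.262) or control library 2 (0.207). The ERβ5 over control call was lost without ERβ5 library 1 (edgeR adjusted p = 0.05), ERβ5 library 2 (0.0683), control library 1 (0.269) or control library 2 (0.141).

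HSP90AA1 and HSP90AB1 encode the stress-inducible and the constitutive cytosolic HSP90. HSP90AA1 was at 1734 and 1543 CPM in ERβ5, 1476 and 1427 CPM in ERβ1, 1478 and 1226 CPM in ERβ-KO, and 1199 and 1213 CPM in control. ERβ5 was highest and control lowest, without overlap, and the ERβ-KO libraries covered the range of ERβ1. HSP90AA1 rose by 0.44 ± 0.11 on the log2 scale in ERβ5 over control (edgeR adjusted p = 0.0248). HSP90AB1 was at 2545 and 2679 CPM in ERβ5, 2665 and 2431 CPM in ERβ1, 2010 and 2062 CPM in ERβ-KO, and 2252 and 2290 CPM in control. Its libraries stood in the same 3 steps as in HSPB1, with ERβ-KO lowest and ERβ5 and ERβ1 highest. The tests did not set control apart from ERβ-KO (edgeR adjusted p = 0.274), ERβ5 (0.207) or ERβ1 (0.387). HSP90AB1 rose by 0.32 ± 0.10 on the log2 scale in ERβ1 over ERβ-KO (edgeR adjusted p = 0.0331) and by 0.36 ± 0.10 in ERβ5 over ERβ-KO (edgeR adjusted p = 0.0206). The count ratio of HSP90AA1 to HSP90AB1 was 0.681 and 0.576 in ERβ5, 0.554 and 0.587 in ERβ1, 0.736 and 0.594 in ERβ-KO, and 0.532 and 0.53 in control.

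With the trend removed, HSP90AB1 kept its calls, at 0.35 in ERβ1 over ERβ-KO (edgeR adjusted p = 0.0108) and 0.42 in ERβ5 over ERβ-KO (edgeR adjusted p = 0.00739). HSP90AA1, with 41.6% GC, was then also called in ERβ5 over ERβ-KO at 0.52 (edgeR adjusted p = 0.00704), against 0.28 as counted (edgeR adjusted p = 0.0852). The HSP90AB1 call in ERβ1 over ERβ-KO was lost without ERβ1 library 1 (edgeR adjusted p = 0.223), either ERβ-KO library (0.112 and 0.0792) or either control library (0.0824 and 0.0825). That in ERβ5 over ERβ-KO was lost without ERβ5 library 2 (edgeR adjusted p = 0.0855), either ERβ-KO library (0.0766 and 0.061) or either control library (0.0539 and 0.054). The HSP90AA1 call in ERβ5 over control was lost without ERβ5 library 1 (edgeR adjusted p = 0.0744) or either control library (0.195 and 0.15), and HSP90AA1 was called in ERβ5 over ERβ-KO without ERβ-KO library 1 (0.42, edgeR adjusted p = 0.0467).

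HSPD1 and HSPE1 encode HSP60 and HSP10, the barrel and the lid of the mitochondrial chaperonin. HSPD1 was at 441.6 and 404.4 CPM in ERβ5, 435.3 and 477.4 CPM in ERβ1, 513.6 and 538.5 CPM in ERβ-KO, and 553.9 and 535.8 CPM in control. Every ERβ5 and ERβ1 library was below every ERβ-KO and control library, the reverse of HSPA1A. HSPD1 fell by 0.31 ± 0.10 on the log2 scale in ERβ5 against ERβ-KO (edgeR adjusted p = 0.0339) and by 0.37 ± 0.10 in ERβ5 against control (edgeR adjusted p = 0.0303). ERβ1 against ERβ-KO was -0.20 ± 0.10 (edgeR adjusted p = 0.143), and ERβ1 against control was -0.26 ± 0.10 (edgeR adjusted p = 0.178). HSPE1 was at 20.28 and 20.46 CPM in ERβ5, 18.85 and 21.01 CPM in ERβ1, 15.35 and 18.97 CPM in ERβ-KO, and 19.55 and 20.9 CPM in control. It rested on 502 to 1017 reads per library, ERβ-KO library 1 was the lowest, and no comparison was called as counted (edgeR adjusted p = 0.179 to 0.971). Per single-copy window, HSPD1 exceeded HSPE1 5.39 and 4.89 times in ERβ5, 5.72 and 5.62 times in ERβ1, 8.28 and 7.03 times in ERβ-KO, and 7.01 and 6.34 times in control. The ratio was therefore lower in all 4 ERβ5 and ERβ1 libraries than in the ERβ-KO and control libraries.

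With the trend removed, HSPD1 was no longer called in ERβ5 against ERβ-KO (-0.09, edgeR adjusted p = 0.384) but stayed called in ERβ5 against control (-0.30, edgeR adjusted p = 0.0104) and was called in ERβ1 against control (-0.25, edgeR adjusted p = 0.0421). HSPE1, with 39.3% GC, was then called in ERβ-KO against control at -0.36 (edgeR adjusted p = 0.0399), in ERβ1 over ERβ-KO at 0.36 (edgeR adjusted p = 0.0236) and in ERβ5 over ERβ-KO at 0.48 (edgeR adjusted p = 0.00906). As counted, the HSPD1 call in ERβ5 against ERβ-KO was lost without ERβ5 library 2 (edgeR adjusted p = 0.144), either ERβ-KO library (0.0736 and 0.131) or either control library (0.0731 and 0.0732). That in ERβ5 against control was lost without ERβ5 library 2 (edgeR adjusted p = 0.13) or either control library (0.25 and 0.147).

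Taken by comparison, the first question is how the libraries labelled ERβ-KO differed from those of control. In ERβ-KO against control, 1 of the 10 genes was called higher (HSPH1) and 2 lower (HSPA8 and HSPB1), beside 17.5% of all 13915 genes called, 8.98% higher and 8.52% lower. Libraries of the groups did not overlap for 7 of the 10, beside 69.2% of all genes. The median log2 fold change of the 10 was -0.08, and that of all genes was 0.01.

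The next question is how the libraries labelled as having an isoform put back differed from those of ERβ-KO. In ERβ5 against ERβ-KO, 3 genes were higher (HSPB1, HSPA1A and HSP90AB1) and 1 lower (HSPD1), beside 28.2% of all genes called, 14.7% higher and 13.5% lower, and the median of the 10 was 0.21. In ERβ1 against ERβ-KO, 3 genes were higher (HSPB1, HSPA1A and HSP90AB1), beside 24.9% of all genes called, 12.4% higher and 12.5% lower, and the median was 0.17. Both comparisons use the same ERβ-KO libraries. Groups did not overlap for 8 of the 10 in ERβ5 against ERβ-KO and for 6 of the 10 in ERβ1 against ERβ-KO, beside 66% and 65.3% of all genes.

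Whether ERβ5 and ERβ1 libraries differed was tested directly. In ERβ5 against ERβ1, edgeR called none of the 10, beside 4.66% of all genes called, 3.49% higher and 1.18% lower. DESeq2 also called 0. Only 1 (HSPA8) had an unadjusted edgeR p under 0.05, and the share of all genes under that threshold is not given. Groups did not overlap for 3 of the 10 (HSPA8 lower, HSPH1 and HSP90AA1 higher), beside 43.1% of all genes. Apart from HSPA8, the 95% intervals of the differences for the 10 genes lay between -0.323 and 0.422, the lower bound being that of HSPD1 and the upper that of HSP90AA1.

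Set against control, in ERβ5 3 genes were higher (HSPB1, HSP90AA1 and HSPH1) and 2 lower (HSPA8 and HSPD1), beside 13.2% of all genes called, 6.85% higher and 6.31% lower, and groups did not overlap for 9 of the 10, beside 60.1% of all genes. The median of the 10 was 0.23. In ERβ1 against control, edgeR called none, beside 4.06% of all genes called by edgeR, 1.36% higher and 2.7% lower. DESeq2 called 1 (HSPB1, edgeR adjusted p = 0.0623 and DESeq2 adjusted p = 0.0141), and 5 had an unadjusted edgeR p under 0.05. The shares of all genes called by DESeq2 or under that unadjusted threshold are not given, so these counts have no background. Groups did not overlap for 7 of the 10 in ERβ1 against control, beside 55.1% of all genes, and the median was 0.17.

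**Figure D3:**
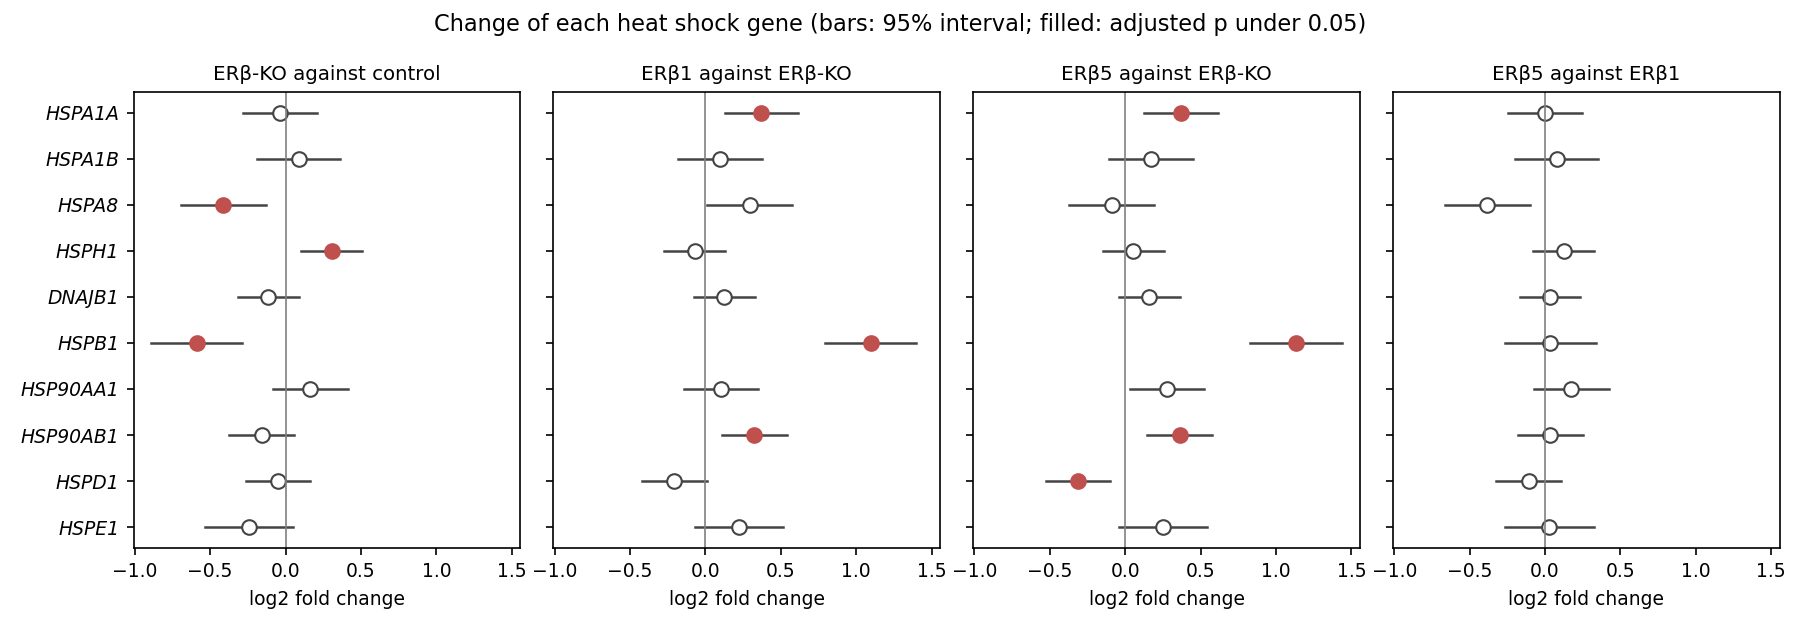
Log2 fold change of each gene in 4 comparisons, with the 95% interval as bars; filled points have an edgeR adjusted p under 0.05. HSPB1 stands out at 1.10 in ERβ1 against ERβ-KO and 1.13 in ERβ5 against ERβ-KO, and no point is filled in ERβ5 against ERβ1.

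Removing the GC and length trend moved the genes by their GC content in each comparison with ERβ-KO. The trend at HSPB1 was -0.50 on the log2 scale in ERβ-KO against control, 0.52 in ERβ5 against ERβ-KO and 0.41 in ERβ1 against ERβ-KO. At HSPH1 it had the opposite sign, at 0.27, -0.32 and -0.25 in the same comparisons. In ERβ5 against control it was between -0.12 and 0.05 for all 10 genes. With the trend removed, 5 genes were called in ERβ5 against ERβ-KO, all higher (HSPB1, HSP90AA1, HSPE1, HSP90AB1 and HSPH1), beside 18% of all genes called in that fit, 8.63% higher and 9.4% lower. In ERβ1 against ERβ-KO 4 were higher (HSPB1, HSPA8, HSPE1 and HSP90AB1), beside 24% of all genes called, 10.8% higher and 13.2% lower. In ERβ-KO against control 2 were lower (HSPA8 and HSPE1), beside 11.8% of all genes called, 6.31% higher and 5.47% lower. In ERβ5 against control 4 were higher (HSPB1, HSP90AA1, HSPH1 and HSPA1A) and 2 lower (HSPA8 and HSPD1), beside 21.9% of all genes called, 11.4% higher and 10.5% lower. In ERβ1 against control 2 were higher (HSPB1 and HSPA1A) and 1 lower (HSPD1), beside 9.83% of all genes called, 4.22% higher and 5.61% lower. The part of library preparation in this trend was not tested.

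**Figure D4:**
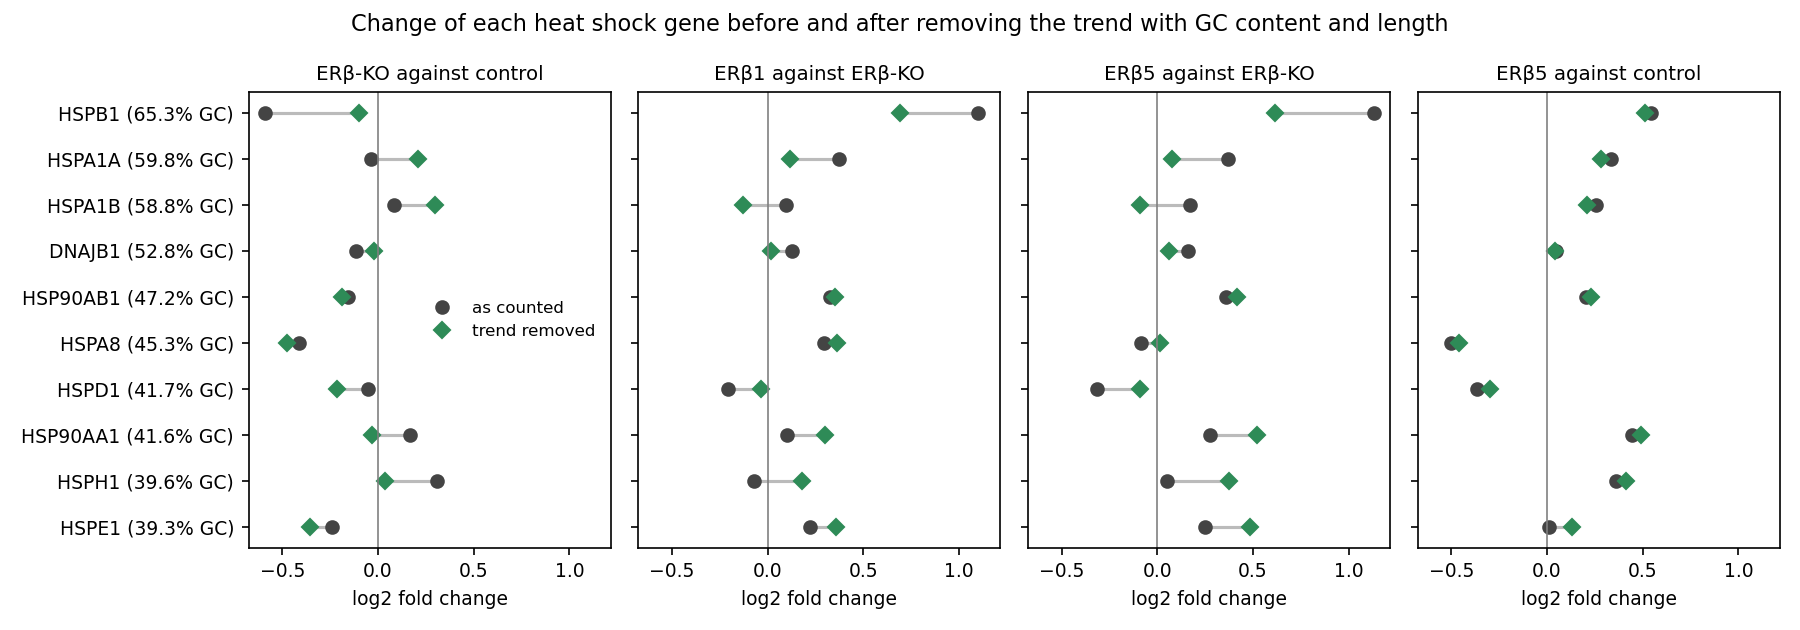
Log2 fold change of each gene as counted (circles) and with the trend of level on GC content and transcript length removed (diamonds), genes ordered by GC content, in 4 comparisons. HSPB1 in ERβ-KO against control lies at -0.59 as counted and at -0.10 with the trend removed, while in ERβ5 against control the pairs lie close together.

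The wider chaperone network was described from 9 lists of related genes, with counts over the genes tested. All medians given for lists stand beside medians of all genes between -0.01 and 0.01. Of the 54 counts (9 lists in 6 comparisons), 17 were 0 with edgeR. In those 17, 0 to 3 genes had an unadjusted p under 0.05 and DESeq2 called 0 to 2, for which no shares of all genes are given. The edgeR counts stand beside the shares of all genes called by edgeR given above: 28.2% in ERβ5 against ERβ-KO, 24.9% in ERβ1 against ERβ-KO, 17.5% in ERβ-KO against control, 4.66% in ERβ5 against ERβ1, 13.2% in ERβ5 against control and 4.06% in ERβ1 against control. With the GC and length trend removed the shares were 18%, 24% and 11.8% in the first 3 of these. Most list counts moved when a library was left out, as said beside each.

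Among the other small heat shock proteins only HSPB8 and HSPB11 of 9 were tested. HSPB8, which works with BAG3 in clearing misfolded proteins, was at 179 and 263.3 CPM in ERβ5, 130.5 and 126.9 CPM in ERβ1, 117.9 and 96.03 CPM in ERβ-KO, and 64.38 and 75.1 CPM in control. The groups stood in that order with no overlap between neighbours. HSPB8 rose by 1.66 ± 0.17 in ERβ5 over control (edgeR adjusted p = 0.000148), by 1.05 ± 0.17 in ERβ5 over ERβ-KO (edgeR adjusted p = 0.00234) and by 0.78 ± 0.17 in ERβ5 over ERβ1 (edgeR adjusted p = 0.0212). It rose by 0.88 ± 0.17 in ERβ1 over control (edgeR adjusted p = 0.0144) and by 0.62 ± 0.17 in ERβ-KO over control (edgeR adjusted p = 0.029). All 5 calls held with the GC and length trend removed. Those of ERβ5 over control and over ERβ-KO were called in all 8 fits that left out a library. ERβ5 over ERβ1 was lost without ERβ5 library 2 or either ERβ1 library (edgeR adjusted p = 0.113 to 0.163), ERβ1 over control without either ERβ1 library or control library 1 (0.0799 to 0.193), and ERβ-KO over control without ERβ-KO library 1 or either control library (0.106 to 0.188).

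Of 14 cytosolic J-proteins, 5 were called in ERβ5 against ERβ-KO (1 higher, 4 lower, median -0.05), 4 in ERβ1 against ERβ-KO (1 higher, 3 lower, median -0.25) and 5 in ERβ-KO against control (4 higher, 1 lower, median 0.19). In ERβ5 against control 3 were called, all higher, and 1 was higher in ERβ5 against ERβ1. DNAJA1, an HSP40 partner of HSPA8, was at 376.1 and 469.7 CPM in ERβ5, 282.8 and 258.8 CPM in ERβ1, 354.2 and 292.7 CPM in ERβ-KO, and 226.5 and 236.7 CPM in control. Both ERβ5 libraries were above the other 6. DNAJA1 rose by 0.87 ± 0.13 in ERβ5 over control (edgeR adjusted p = 0.0012), a call kept in all 8 fits that left out a library. It rose by 0.64 ± 0.13 in ERβ5 over ERβ1 (edgeR adjusted p = 0.0142), a call lost without ERβ5 library 2 or either ERβ1 library (edgeR adjusted p = 0.0707 to 0.127). DNAJC9, a J-protein and histone chaperone, fell by 0.77 ± 0.14 in ERβ1 against ERβ-KO (edgeR adjusted p = 0.00256), a call kept in all 8 such fits and with the trend removed. The counts of this list with the trend removed were 2 higher in ERβ5 against ERβ-KO, 1 higher and 2 lower in ERβ1 against ERβ-KO, and 1 lower in ERβ-KO against control, so the balance turned round in the first and the last of these. Leaving out a library gave 1 to 6 called in ERβ5 against ERβ-KO (1 without ERβ5 library 2, 2 without either ERβ-KO library and 3 without either control library). It gave 2 to 6 in ERβ1 against ERβ-KO (2 without ERβ1 library 1, ERβ-KO library 1 or either control library). It gave 0 to 6 in ERβ-KO against control (0 without control library 2, 1 without ERβ-KO library 1 or control library 1, and 3 without ERβ-KO library 2). In ERβ5 against control 1 was called without ERβ5 library 2 or control library 2.

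Of 19 tested cochaperones of HSP70 and HSP90, 9 were called in ERβ5 against ERβ-KO (5 higher, 4 lower, median -0.04), 7 in ERβ1 against ERβ-KO (5 higher, 2 lower, median -0.06) and 3 in ERβ-KO against control (2 higher, 1 lower, median 0.02). These counts stand beside 28.2%, 24.9% and 17.5% of all genes called. The fit with the trend removed called 4 in ERβ5 against ERβ-KO (3 higher, 1 lower) and 3 in ERβ1 against ERβ-KO (2 higher, 1 lower), and the 3 calls in ERβ-KO against control were lost. Leaving out a library gave 2 to 11 in ERβ5 against ERβ-KO (2 without ERβ5 library 2 and 4 without either ERβ-KO library) and 2 to 9 in ERβ1 against ERβ-KO (2 without ERβ1 library 1 or ERβ-KO library 1 and 3 without either control library). In ERβ-KO against control the calls were lost without ERβ-KO library 1 or either control library, and 5 were called without either ERβ5 library. BAG3, the nucleotide exchange factor that links HSP70 to small heat shock proteins, was at 152.9 and 183 CPM in ERβ5, 167 and 141.1 CPM in ERβ1, 100.7 and 93.86 CPM in ERβ-KO, and 100 and 110.6 CPM in control. Every ERβ5 and ERβ1 library was above every ERβ-KO and control library. BAG3 rose by 0.79 ± 0.12 in ERβ5 over ERβ-KO (edgeR adjusted p = 0.00179) and by 0.66 ± 0.12 in ERβ1 over ERβ-KO (edgeR adjusted p = 0.00288), both kept with the trend removed and in all 8 fits that left out a library. As counted, it was the only cochaperone edgeR called in ERβ5 or ERβ1 against control (in ERβ5 against control 3 were called with the trend removed, 2 by DESeq2 and 2 without ERβ5 library 1), with 0.67 ± 0.12 in ERβ5 (edgeR adjusted p = 0.00382, lost without control library 1 at 0.0643) and 0.55 ± 0.12 in ERβ1 (edgeR adjusted p = 0.0273, lost without ERβ1 library 1 or either control library at 0.0968 to 0.336). STUB1, the ubiquitin ligase CHIP, rose by 0.50 ± 0.10 in ERβ1 over ERβ-KO (edgeR adjusted p = 0.00352) but was at 0.15 with the trend removed (edgeR adjusted p = 0.256).

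Of 9 heat shock factors and stress partners, 4 were called in ERβ5 against ERβ-KO, all higher (median 0.39), beside 14.7% of all genes called higher, and 3 in ERβ5 against control, all higher (median 0.14), beside 6.85%. Removing the trend gave 1 called in ERβ5 against ERβ-KO and 4 in ERβ5 against control, all higher. The calls in ERβ5 against ERβ-KO were all lost without ERβ5 library 2 or ERβ-KO library 1, 2 genes were called without ERβ-KO library 2, and the highest count with a library left out was 6. Those in ERβ5 against control were all lost without ERβ5 library 2 or either control library. HSF1, named here as the factor of the background and chosen after its values were seen, was at 148.5 and 186.1 CPM in ERβ5, 161.4 and 144.2 CPM in ERβ1, 113.6 and 136.3 CPM in ERβ-KO, and 156.2 and 153 CPM in control. The ERβ-KO libraries were lowest. HSF1 was higher in ERβ5 than in ERβ-KO by 0.42 ± 0.13 (edgeR adjusted p = 0.0309), a value that was -0.01 with the trend removed (edgeR adjusted p = 0.934) and lost its call without ERβ5 library 2, ERβ-KO library 1 or either control library (edgeR adjusted p = 0.0528 to 0.232).

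In the other HSP70 and HSP110 genes, 8 tested of 9, HSPA2, an HSP70 best known from the testis, was called between the isoforms. It was at 8.788 and 6.905 CPM in ERβ5, 14.57 and 11.73 CPM in ERβ1, 6.929 and 6.62 CPM in ERβ-KO, and 9.242 and 10.73 CPM in control. The ERβ1 libraries were the highest. HSPA2 rose by 0.95 ± 0.17 in ERβ1 over ERβ-KO (edgeR adjusted p = 0.00258), kept in all 8 fits that left out a library and with the trend removed, and fell by 0.73 ± 0.17 in ERβ5 against ERβ1 (edgeR adjusted p = 0.0295), lost without ERβ5 library 2 or either ERβ1 library (edgeR adjusted p = 0.059 to 0.226). HSPA13 fell by 0.67 ± 0.12 in ERβ5 against control (edgeR adjusted p = 0.00418), kept in all of these fits. The list's counts were 1 lower in ERβ5 against ERβ-KO (median -0.02), 1 higher and 1 lower in ERβ1 against ERβ-KO (median 0.04), 1 lower in ERβ-KO against control (median -0.03), 1 lower in ERβ5 against ERβ1 (median -0.12) and 1 lower in ERβ5 against control (median -0.09). Once the trend was removed they were 1 higher in ERβ5 against ERβ-KO and 2 higher in ERβ1 against ERβ-KO, where HSPA13 lost its lower calls (-0.29, edgeR adjusted p = 0.0641, and -0.20, edgeR adjusted p = 0.172). Without ERβ1 library 1 only HSPA2 was called in ERβ1 against ERβ-KO, without ERβ-KO library 2 there were 2 calls in ERβ5 against ERβ-KO (1 higher, 1 lower), and the call in ERβ-KO against control was lost without either ERβ-KO or either control library.

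Of 14 other mitochondrial chaperones and proteases, 6 were called in ERβ5 against ERβ-KO (3 higher, 3 lower, median 0.11), 6 in ERβ1 against ERβ-KO (3 higher, 3 lower, median 0.08), 3 in ERβ-KO against control (1 higher, 2 lower, median -0.11) and 2 in ERβ5 against control (1 higher, 1 lower, median 0.01), beside 28.2%, 24.9%, 17.5% and 13.2% of all genes called. The numbers with the trend removed were 5 in ERβ5 against ERβ-KO (4 higher, 1 lower), 3 in ERβ1 against ERβ-KO (2 higher, 1 lower), 2 in ERβ-KO against control (both lower) and 3 in ERβ5 against control (1 higher, 2 lower). Leaving out a library gave 2 to 7 in ERβ5 against ERβ-KO (2 without ERβ-KO library 2) and 0 to 7 in ERβ1 against ERβ-KO (0 without ERβ1 library 1 and 2 without either ERβ-KO library). The calls in ERβ-KO against control were all lost without either ERβ-KO or either control library, and those in ERβ5 against control without either control library, and 1 gene was called there without either ERβ5 library. HSPA9, the HSP70 of the mitochondrial matrix, was at 978.2 and 1020 CPM in ERβ5, 929.4 and 949.5 CPM in ERβ1, 1211 and 1461 CPM in ERβ-KO, and 1261 and 1212 CPM in control. As with HSPD1, all ERβ5 and ERβ1 libraries were below all ERβ-KO and control libraries. HSPA9 fell by 0.51 ± 0.11 in ERβ1 against ERβ-KO (edgeR adjusted p = 0.00662), lost without ERβ1 library 1 (0.0616) and with the trend removed (-0.33, edgeR adjusted p = 0.0568). CLPB, a disaggregase of the mitochondrial intermembrane space, rose by 0.55 ± 0.11 in ERβ5 over ERβ-KO (edgeR adjusted p = 0.00512), kept in all 8 fits that left out a library and with the trend removed.

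Among 8 subunits of TRiC, the cytosolic counterpart of HSP60, CCT3 was the only one called as counted in ERβ1 against ERβ-KO (0.30 ± 0.09, edgeR adjusted p = 0.0372) and CCT4 in ERβ5 against control (-0.34 ± 0.10, edgeR adjusted p = 0.0465). CCT3 lost its call without ERβ1 library 1, either ERβ-KO library or either control library (edgeR adjusted p = 0.0881 to 0.197), and CCT4 without any library other than ERβ5 library 1 (0.056 to 0.305). Under removal of the trend, 3 TRiC genes were called in ERβ1 against ERβ-KO, all higher, 1 higher in ERβ5 against ERβ-KO and 2 lower in ERβ-KO against control. List medians of TRiC were between -0.07 and 0.03 in the 6 comparisons. Of 6 prefoldin subunits, which hand actin and tubulin to TRiC, 2 were called in ERβ5 against ERβ-KO, both lower (median 0.14), 3 in ERβ1 against ERβ-KO (1 higher, 2 lower, median -0.13) and 2 in ERβ-KO against control (1 higher, 1 lower, median 0.06), beside 28.2%, 24.9% and 17.5% of all genes called. When the trend was removed, both prefoldin calls in ERβ5 against ERβ-KO were lost, 2 were called in ERβ1 against ERβ-KO (1 higher, 1 lower) and 1 lower in ERβ-KO against control. In ERβ5 against ERβ-KO 1 was called without ERβ5 library 2, ERβ-KO library 1 or either control library. The calls in ERβ1 against ERβ-KO were all lost without ERβ1 library 1 or ERβ-KO library 1. Those in ERβ-KO against control were all lost without ERβ-KO library 1 or either control library, and 1 gene was called there without ERβ-KO library 2. VBP1 fell by 0.59 ± 0.14 in ERβ5 against ERβ-KO (edgeR adjusted p = 0.0106) and was at -0.20 with the trend removed (edgeR adjusted p = 0.0933).

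The chaperones of the endoplasmic reticulum, which answer to the unfolded protein response and not to HSF1 in the main, were mostly lower against control. Of 14, 13 were lower in ERβ5 against control (median -0.95), 10 in ERβ1 against control (median -0.68) and 10 in ERβ-KO against control (median -0.67), and every call in these comparisons was a lower one, beside 6.31%, 2.7% and 8.52% of all genes called lower. These counts were 13, 11 and 10 with the trend removed. Leaving out a library gave 10 to 13 in ERβ5 against control. It gave 2 to 11 in ERβ1 against control (2 without ERβ1 library 2, 3 without either control library and 4 without ERβ1 library 1) and 5 to 11 in ERβ-KO against control (5 without control library 2). HSP90B1, the HSP90 of the endoplasmic reticulum, was at 1482 and 1237 CPM in ERβ5, 2121 and 2184 CPM in ERβ1, 1593 and 1797 CPM in ERβ-KO, and 3812 and 3833 CPM in control. ERβ5 was lowest and control highest, with no overlap among the 4 groups, whereas its cytosolic relatives HSP90AA1 and HSP90AB1 were not called lower in any comparison. HSP90B1 fell by 1.49 ± 0.12 in ERβ5 against control (edgeR adjusted p = 2.44e-05), a call kept in all 8 fits that left out a library. It fell by 0.66 ± 0.11 in ERβ5 against ERβ1 (edgeR adjusted p = 0.00626), lost without ERβ1 library 1 (0.0643) or 2 (0.0718). In ERβ5 against ERβ1, 3 of the 14 were lower (median -0.32), beside 1.18% of all genes called lower. In ERβ5 against ERβ-KO 4 were lower (median -0.31), beside 13.5% called lower. In ERβ1 against ERβ-KO 4 were higher (median 0.03), beside 12.4% called higher. In ERβ5 against ERβ1 leaving out a library gave 0 to 5 (0 without ERβ1 library 1, 1 without ERβ1 library 2 or ERβ5 library 2, and 5 without ERβ5 library 1). In ERβ5 against ERβ-KO it gave 1 without ERβ5 library 2, 7 without ERβ-KO library 1, 2 without either control library, all of them lower, and 2 without ERβ-KO library 2, both higher. In ERβ1 against ERβ-KO it gave 1 without ERβ1 library 1 and 2 without either control library. DESeq2 called 9 of the 14 in ERβ5 against ERβ-KO (1 higher, 8 lower) and 7 in ERβ1 against ERβ-KO (5 higher, 2 lower). The share of all genes called by DESeq2 is not given, so its counts cannot be set beside the edgeR shares.

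**Figure D5:**
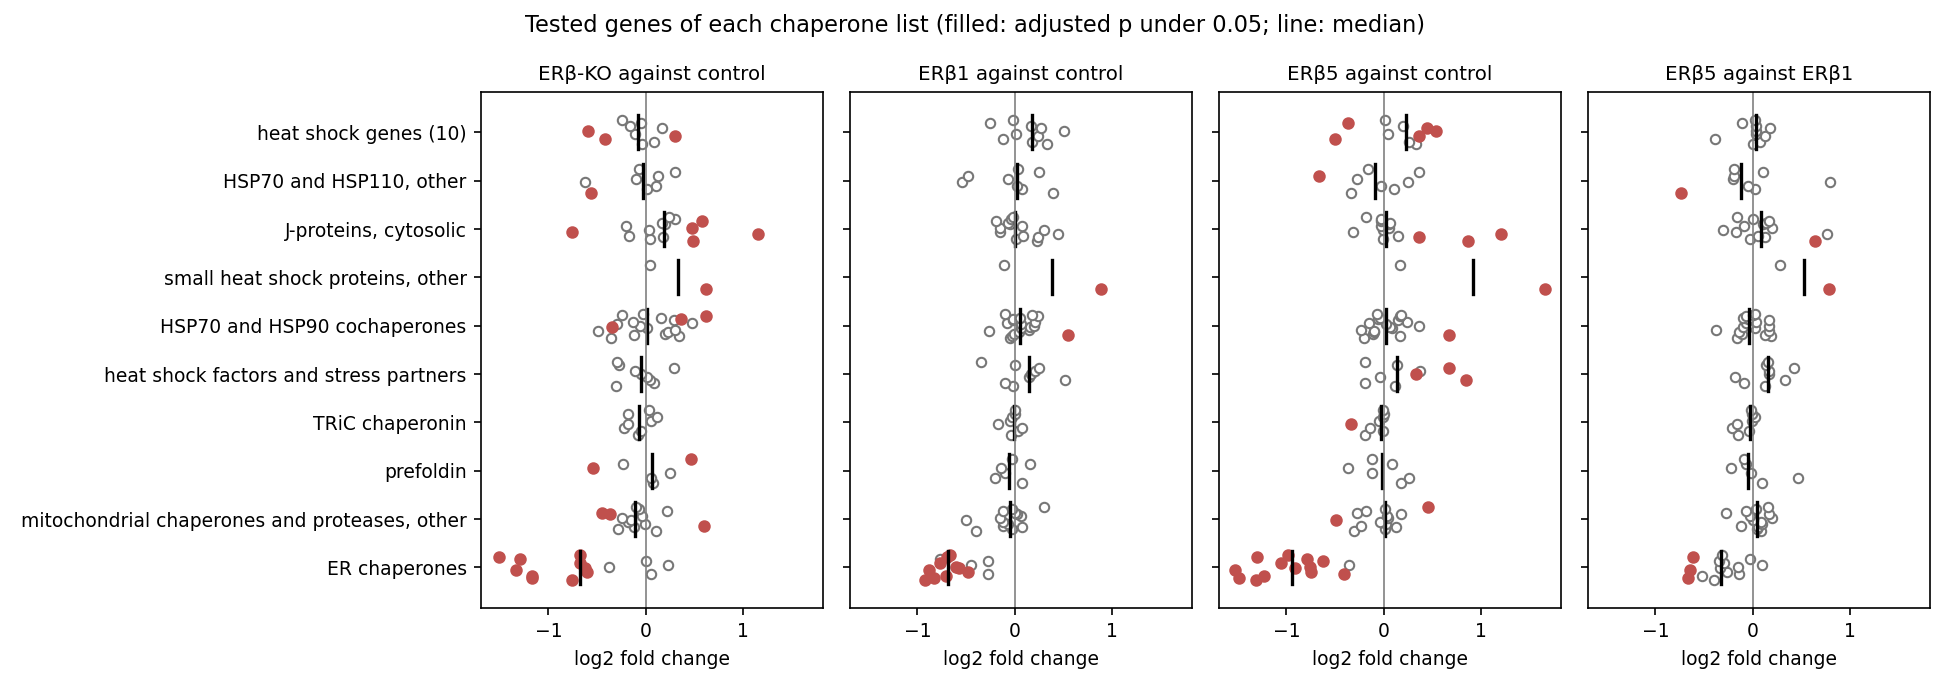
Log2 fold change of every tested gene of the 10 heat shock genes and of the 9 chaperone lists in 4 comparisons; filled points have an edgeR adjusted p under 0.05 and the bar is the list's median. The chaperones of the endoplasmic reticulum lie left of 0 against control, with a median of -0.95 in ERβ5, while the medians of the 10 heat shock genes are -0.08 in ERβ-KO, 0.17 in ERβ1 and 0.23 in ERβ5.

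The profiles most like those of HSPA8 and HSPD1 over the 8 libraries were sought among 10580 genes with a mean of at least 5 CPM, by the root mean square difference of log2 levels centred on each gene's mean. LTA4H was nearest to HSPA8, at 0.0452, then KREMEN1 at 0.0571 and ASB1 at 0.0572. PAICS was nearest to HSPD1, at 0.0214, then RSL1D1 at 0.0295 and ARFGAP3 at 0.0357. Among the 10 heat shock genes, HSPD1 was the nearest to HSPA8 at 0.21, little below the distance of HSPA8 from a flat line (0.236). DNAJB1 was the nearest to HSPD1 at 0.206, farther than HSPD1 lay from a flat line (0.158).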

How the data were processed

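RNA-seq counts per gene of 8 libraries (4 groups of 2) were used as deposited. Total RNA was prepared with an Illumina TruSeq Total RNA kit and read as 50-base single ends, per the labels' protocols. TopHat2 2.0.8b on hg19 and HTSeq made these counts, per the submitters' processing notes, which as used here give neither the strand setting nor the annotation. Each deposited file also holds 5 rows that name no gene, of which reads aligned at more than 1 place took 34.72% to 39.87% of all counts; these rows were left out of library sizes and tests.

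Genes were filtered with filterByExpr (minimum count 10, minimum total 15), scaled by TMM and tested with edgeR 4.0.16's robust quasi-likelihood F test in R 4.3.3, all 4 groups in 1 fit, with Benjamini-Hochberg adjustment over 13915 genes; calls have an adjusted p under 0.05. CPM values are TMM-scaled. A standard error is the log2 fold change over the root of its F. The common biological coefficient of variation was 0.102. The pipeline was tested on simulated data, and the outcome is not given here. The alternatives were other size factors, filters, DESeq2 1.42.0, fits of the compared groups alone, a fold threshold, a replicate block, removal of the trend on GC content and length (lowess, span 0.3), and leaving out each library.

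Replicates of a group correlated at 0.9905 to 0.9953 (log2 CPM, across genes). Their spread was not equal between groups. The chi-square of the counts per degree of freedom was 42.32 in ERβ5, 22.15 in ERβ1, 26.99 in ERβ-KO and 7.721 in control. Of each chaperone list, up to 3 called genes per comparison with the smallest adjusted p could be named, and levels only were given for marker lists. The 10 genes and all lists were chosen with earlier results of these data known.

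Gene positions and transcripts came from GENCODE annotation on GRCh37, which matched 21312 of the 23228 genes. Upstream sequences came from RefSeq.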

Additional observations from a re-analysis of the deposited data

How the results depend on the processing

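Of the 10 genes' results under other settings, 957 kept their side of the threshold, 84 lost a call, 39 gained one and 0 called values reversed. Values not called could change sign among the 957. HSPA1A in ERβ-KO against control was at -0.04 as counted and at 0.21 with the GC and length trend removed, for example. The number called was 4 in ERβ5 against ERβ-KO, 3 in ERβ1 against ERβ-KO, 3 in ERβ-KO against control, 0 in ERβ5 against ERβ1, 5 in ERβ5 against control and 0 in ERβ1 against control. A test against a 1.5-fold threshold (glmTreat) gave 1, 1, 0, 0, 0 and 0 in that order, by its own construction a stricter question. Fitting only the groups compared gave 1 in ERβ5 against ERβ-KO and 3 in ERβ1 against control. Without a filter, 1 was called in ERβ5 against ERβ1 and 1 in ERβ1 against control, where DESeq2 also called 1; the cause was not tested. With the GC and length trend removed, 3 were called in ERβ1 against control. Leaving out each library in turn gave 1 to 4 in ERβ5 against ERβ-KO, 1 to 4 in ERβ1 against ERβ-KO, 0 to 3 in ERβ-KO against control, 0 to 1 in ERβ5 against ERβ1, 0 to 5 in ERβ5 against control and 0 to 1 in ERβ1 against control.

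Replicate numbers did not pair the libraries: same-numbered libraries of different groups deviated with correlations of -0.118 to 0.133 across genes. A replicate block gave the same counts (4, 3, 3, 0, 5 and 0), and with the GC trend also removed it gave 5 in ERβ1 against ERβ-KO, 1 in ERβ5 against ERβ1 and 3 in ERβ1 against control.

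Of 79 results of named list genes, 23 were called in every fit that left out a library and 46 with the GC and length trend removed. That removal changed the sign of STUB1 in ERβ5 against ERβ-KO (-0.0387, or -0.0382 with the replicate block) and in ERβ-KO against control (0.0708, or 0.0667). It also changed that of PFDN4 in ERβ5 against ERβ-KO (0.185, or 0.209) and in ERβ1 against ERβ-KO (0.0999, or 0.107). HSF1, not counted in the 79, changed sign in ERβ5 against ERβ-KO (-0.0102, or -0.0101). None of these values was then called. The lowest count among the 10 genes was 502 reads (HSPE1), and with 2 libraries a group every call rests on 1 estimate of the spread shared by all groups.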
